A study of Mus musculus with 9 samples.

Results

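The 8 genes described here, Otud1, Otud3, Otud4, Otud5, Otud6b, Otud7b, Otub1 and Otub2, encode deubiquitinases with a catalytic ovarian tumour (OTU) domain. They were taken by name from the gene table of a mouse liver RNA-seq study, and all 8 of 8 names were found among its 21936 genes. The set was chosen by read counts in these same libraries, those of Otud1 in particular. The levels and fold changes of the 8 genes are therefore given as a description, with no p-values printed. Ranks and calls by p-value that appear for them below describe the same counts and are no test. The study took livers from wild-type mice 2 h after intraperitoneal injection; 3 groups received NaCl, 25 mg/kg retrorsine and 50 mg/kg retrorsine, with 3 poly(A) RNA libraries each and 9 in all. Retrorsine is a pyrrolizidine alkaloid of Senecio plants that liver cytochromes convert into pyrroles that bind DNA and protein. The labels give no sex, age or substrain, and they do not say whether replicate libraries stand for different mice, so p-values measure the spread between these libraries, which may be technical. Each library held 15241261 to 18691736 counted reads.

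Ubiquitin is a small protein that cells attach to other proteins through a cascade of activating, conjugating and ligating enzymes, often as chains built through different lysines of ubiquitin. The type of chain helps to decide whether the tagged protein is degraded by the proteasome or takes part in signalling. OTU deubiquitinases are mostly cysteine proteases that cut such chains, and many of them prefer particular chain types. Several restrain or shape innate immune, NF-kappaB and oxidative stress signalling, and what is known of their substrates comes largely from protein work in human and mouse cells. OTUD1 has been reported to act on KEAP1, SMAD7, p53 and other proteins, and OTUB1 is unusual in that it also blocks ubiquitin-conjugating enzymes without cutting a chain.

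Otud1 (ENSMUSG00000043415) lies on the plus strand at chr2:19657752-19660583 in GRCm38 and is listed with 2832 bases in a single exon, so it has no intron. No other gene of the GENCODE M21 annotation overlaps it. The 250 bases before its RefSeq start site, which lies upstream of the GENCODE start, are shown because Otud1 was the gene of the 8 with the largest difference between groups, and those of Otud3 (chr4, minus strand) are shown beside it because they hold the same pair of overlapping motifs next to a gene whose level differed little. Both are RefSeq sequences of GRCm38.p6, at chr2:19657481-19657730 (plus strand) and chr4:138913969-138914218 (minus strand), written 5′ to 3′ on the strand of the gene. Capitals mark each match to the E-box letters CACGTG, which bHLH factors such as MYC with MAX or CLOCK with BMAL1 can read, or to the core letters of the antioxidant response element, TGACNNNGC, which NRF2 with small MAF proteins can read.
Otud1: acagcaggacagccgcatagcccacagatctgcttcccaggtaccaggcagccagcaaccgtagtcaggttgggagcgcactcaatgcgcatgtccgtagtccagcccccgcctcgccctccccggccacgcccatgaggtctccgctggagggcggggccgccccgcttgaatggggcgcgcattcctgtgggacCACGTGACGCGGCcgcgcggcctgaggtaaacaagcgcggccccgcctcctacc
Otud3: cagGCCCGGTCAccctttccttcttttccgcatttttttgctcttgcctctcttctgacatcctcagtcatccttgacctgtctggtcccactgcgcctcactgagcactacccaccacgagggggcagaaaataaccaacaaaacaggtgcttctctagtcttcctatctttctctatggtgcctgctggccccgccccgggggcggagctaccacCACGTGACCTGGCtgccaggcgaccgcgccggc

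In Otud1 the E-box and the core overlap to form the 13 letters CACGTGACGCGGC, whose first base lies 54 bases upstream of the start site. In Otud3 the corresponding letters are CACGTGACCTGGC, 33 bases upstream, and a further core match on the other strand lies near the far end of the window. Both strands of 32851 mouse promoter windows, from 250 bases before to 50 after each start site, were searched. The E-box letters were present in 7.15% of windows, the core letters in 12.4% and the joined letters CACGTGACNNNGC in 0.298%, the last of these having been searched for after the sequence of Otud1 was seen. Windows were available for 6 of the 8 genes, and neither motif was present in those of Otub1, Otub2, Otud4 or Otud5. Neither TGACGTCA nor TGANTCA, letters that CREB and AP-1 can read, was present in the window of Otud1; they were present in 1.79% and 7.81% of all windows. These matches are descriptions of letters, and no binding was measured.

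Some libraries stood apart in transcripts of other cells. The 9 pancreatic acinar markers summed to 4992, 747 and 194 CPM in the NaCl libraries (read counts scaled to a common library size, with composition adjusted by the TMM method), to 1.65, 1.13 and 3.25 CPM at 25 mg/kg and to 1.76, 277 and 11.6 CPM at 50 mg/kg. Up to 5 of them, Cela3b, Clps, Ctrb1, Pnlip and Prss2, were at 0 in a library at 25 mg/kg and up to 3 in a library at 50 mg/kg, whereas all 9 were detected in each NaCl library. The 5 lymphocyte markers summed to 0.909 to 1.34 CPM with NaCl, 1.93 to 4.49 CPM at 25 mg/kg and 5.25 to 38.5 CPM at 50 mg/kg, with Ms4a1 at 0 in 5 libraries spread over the 3 groups. Much of the sum at 50 mg/kg was Cd3e, at 14.6 ± 16 CPM against 0.252 ± 0.086 CPM with NaCl (SD, n = 3 each). Cd79a averaged 0.302, 1.1 and 2.39 CPM with NaCl, at 25 mg/kg and at 50 mg/kg. Cd3g, also a T cell marker, averaged 0.386, 0.888 and 0.448 CPM, so the sum does not stand for all its markers. The 4 neutrophil markers reached 201 CPM in replicate 3 at 50 mg/kg, against 5.98 to 32 CPM in the other libraries. The 4 cholangiocyte markers summed to 103 CPM and the 4 stellate markers to 310 CPM in NaCl replicate 2, against 16.4 to 36.9 CPM and 131 to 203 CPM in the other libraries. The 6 Kupffer cell markers summed to 199 to 282 CPM with NaCl and 259 to 450 CPM at 25 mg/kg. At 50 mg/kg they summed to 472, 173 and 272 CPM in replicates 1, 2 and 3. The 5 sinusoidal endothelial markers summed to 224 to 247 CPM with NaCl, 202 to 228 CPM at 25 mg/kg and 155 to 233 CPM at 50 mg/kg. The 8 hepatocyte markers measured, albumin among them, made up 12.1% to 16% of counts and none was at 0 in any library. In bulk liver, fewer cells of a type and less RNA per cell cannot be told apart.

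Otud1 was scarce in NaCl livers and abundant in both retrorsine groups. It had 44, 71 and 59 reads in the NaCl libraries, 784, 671 and 680 reads at 25 mg/kg and 559, 449 and 334 reads at 50 mg/kg. On the CPM scale these were 2.96, 3.59 and 2.96 with NaCl, 44.6, 44.6 and 36.8 at 25 mg/kg and 34, 29.2 and 22.8 at 50 mg/kg. Every retrorsine library was above every NaCl library, and the 3 libraries at 50 mg/kg were all below the 3 at 25 mg/kg.

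The level of Otud1 averaged 42 ± 4.5 CPM at 25 mg/kg and 3.17 ± 0.36 CPM with NaCl (SD, n = 3 each), a fitted 13.2-fold difference (log2 3.72, SE 0.21). At 50 mg/kg it averaged 28.6 ± 5.6 CPM, a 9.01-fold difference from NaCl (log2 3.17, SE 0.2). Set against 25 mg/kg, the level at 50 mg/kg was 0.682-fold (log2 -0.55, SE 0.18). The comparisons with NaCl share the same 3 NaCl libraries and are not independent of each other. Counted down from the most positive log2 fold change, Otud1 ranked 43 of 12557 tested genes at 25 mg/kg and 93 at 50 mg/kg. By edgeR p-value, which takes both directions together, it ranked 1 in both, and these ranks were known when the genes were chosen.

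The Otud1 values were also fitted without the libraries that stood apart. Without NaCl replicate 1, which held most of the acinar transcripts, the log2 fold changes were 3.68 at 25 mg/kg and 3.13 at 50 mg/kg, and without NaCl replicate 2 they were 3.82 and 3.27. Without NaCl replicate 1 and replicate 2 at 50 mg/kg they were 3.68 and 3.12, and without NaCl replicate 1 and replicate 3 at 50 mg/kg they were 3.68 and 3.27. Without replicate 3 at 50 mg/kg, the library rich in neutrophil markers, the difference of 50 from 25 mg/kg was -0.41 on the log2 scale. The acinar markers of the remaining NaCl libraries still summed to at least 194 CPM, above every library at 25 mg/kg, so these fits do not remove that difference. The part of the acinar markers, and that of the lymphocyte markers, whose sum was higher in every retrorsine library than in any NaCl library, was not tested.

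**Figure D1:**
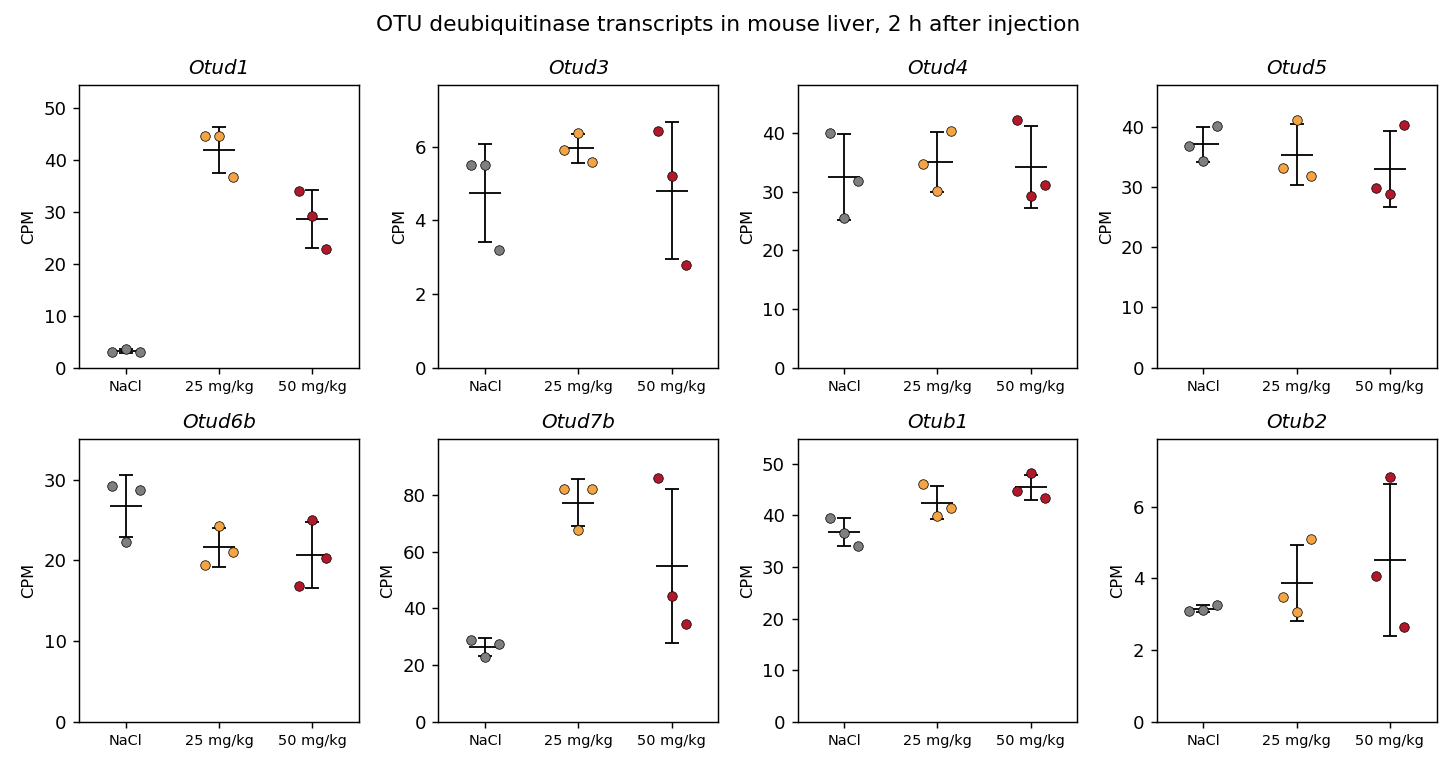
Each panel plots 1 of the 8 genes, with CPM on a linear y axis from 0 and the NaCl, 25 mg/kg and 50 mg/kg retrorsine groups on the x axis; points are libraries, and bars are the mean ± SD (n = 3). Otud1 lies at 22.8 to 44.6 CPM in the 6 retrorsine libraries and at 2.96 to 3.59 CPM with NaCl, Otud7b is also clear of NaCl at both doses, and the points of Otud4, Otud5, Otud6b and Otub2 overlap between groups.

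Otud7b encodes Cezanne, a deubiquitinase that restrains NF-kappaB signalling through TRAF3 and trims chains made in cell division. It lies at chr3:96104527-96161129 on the plus strand. Its level was 29, 22.9 and 27.6 CPM with NaCl, 82, 67.8 and 82.2 CPM at 25 mg/kg and 85.9, 44.4 and 34.6 CPM at 50 mg/kg. Every retrorsine library was above every NaCl library, and the libraries at 50 mg/kg spread widely, with replicate 1 at the level of the lower dose.

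Otud7b averaged 77.3 ± 8.3 CPM at 25 mg/kg and 26.5 ± 3.2 CPM with NaCl (SD, n = 3 each), a log2 fold change of 1.55 (SE 0.3). At 50 mg/kg it averaged 55 ± 27 CPM, and the log2 fold change from NaCl was 1.05 (SE 0.3). Without replicate 1 at 50 mg/kg this value was 0.59, and the difference of 50 from 25 mg/kg was -0.96 in place of -0.49. Otud7b and Otud1 are thus the 2 genes of the 8 whose fitted differences from NaCl exceeded 1 on the log2 scale at both doses.

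Otub1, on the minus strand of chr19:7198202-7206316, encodes the abundant OTU enzyme that binds and blocks ubiquitin-conjugating enzymes. Its level was 39.6, 36.6 and 34.1 CPM with NaCl, 46, 39.8 and 41.5 CPM at 25 mg/kg and 44.7, 48.2 and 43.4 CPM at 50 mg/kg. The retrorsine libraries were all above the NaCl libraries, but by little: the log2 fold changes were 0.21 and 0.31 (SE 0.14 each), and replicate 2 at 25 mg/kg exceeded NaCl replicate 1 by a fraction of a CPM. Otub1 varied least among replicates of the 8, with a pooled SD of 0.098 on the log2 CPM scale, against 0.21 for Otud1 and 0.44 for Otud3 and Otub2.

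Otud3, at chr4:138895379-138913945 on the minus strand, encodes a deubiquitinase of the same family. It was 5.51, 5.51 and 3.21 CPM with NaCl, 5.92, 6.38 and 5.58 CPM at 25 mg/kg and 6.44, 5.2 and 2.79 CPM at 50 mg/kg. The libraries at 25 mg/kg were just above the NaCl libraries and those at 50 mg/kg spanned them. The log2 fold changes were 0.33 at 25 mg/kg and 0.02 at 50 mg/kg (SE 0.34 each). Otub2, the close paralogue of Otub1 at chr12:103388682-103406350 on the plus strand, was 3.09, 3.13 and 3.26 CPM with NaCl, 3.47, 3.06 and 5.09 CPM at 25 mg/kg and 4.07, 6.82 and 2.66 CPM at 50 mg/kg. Its NaCl values were tightly grouped and lay within the range of both retrorsine groups, and its log2 fold changes were 0.29 and 0.51 (SE 0.36 each).

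Otud5, at chrX:7841364-7876626 on the plus strand, encodes DUBA, which removes ubiquitin from TRAF3 and restrains type I interferon production. It was 28.9 to 41.2 CPM over the 9 libraries, with log2 fold changes from NaCl of -0.07 at 25 mg/kg and -0.17 at 50 mg/kg (SE 0.18 each). Otud4, at chr8:79639618-79677724 on the plus strand and reported to act on MyD88 and MAVS, ranged over 25.5 to 42.2 CPM, with log2 fold changes of 0.11 and 0.07 (SE 0.22 each). Otud6b, at chr4:14809498-14826587 on the minus strand, was 29.2, 22.3 and 28.7 CPM with NaCl, 19.5, 24.3 and 21.1 CPM at 25 mg/kg and 16.8, 25 and 20.3 CPM at 50 mg/kg. Of the 8 genes it had the most negative fitted values, -0.31 and -0.37 (SE 0.19 each), and its groups overlapped at both doses.

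All 8 genes passed the filter on low counts and entered edgeR's quasi-likelihood test. Otud1 and Otud7b, 2 of 8, were among the genes higher at 25 mg/kg at an adjusted p under 0.05, a call made for 5.9% of all tested genes, and 0 of 8 were among the 7.56% called lower. At 50 mg/kg the same 2 of 8 were among the 7.09% called higher, and 0 of 8 among the 8.01% called lower. The groups did not overlap, with retrorsine higher, for 4 of 8 genes at 25 mg/kg (17.7% of all genes; 18.8% were non-overlapping and lower, 36.5% either way) and for 3 of 8 at 50 mg/kg (16.6% of all genes, with 18.5% lower and 35% either way). Because these comparisons guided the choice of genes, nothing is read from the counts.

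The call of Otud7b at 50 mg/kg was lost in 13 of 20 alternative settings, among them each fit without any single library except replicate 3 at 50 mg/kg. In the comparison of 50 with 25 mg/kg, 0 of 8 were called by edgeR, by DESeq2 or by limma-voom, where edgeR called 0.00796% of all genes. At an unadjusted p under 0.05, 1 of 8 passed in each of the 3 tools, where edgeR passed 8.59% of all genes, and nothing is read from this count. Otud1 was the 1 gene of 8 whose dose groups did not overlap with 50 mg/kg lower, a pattern seen in 6% of all genes, with 5.38% the other way and 11.4% either way.

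The median log2 fold change of the 8 genes was 0.25 at 25 mg/kg and 0.19 at 50 mg/kg, against 0.012 and 0.00051 over all tested genes. Between the doses it was -0.09, against -0.0073. Across the 9 libraries, log2 CPM of Otud7b had a Pearson correlation of 0.88 with that of Otud1, Otub1 of 0.76, Otub2 of 0.38, Otud3 of 0.33, Otud4 of 0.2, Otud5 of -0.34 and Otud6b of -0.65. These correlations describe libraries that fall into 3 treatment groups, and they carry the group differences given above.

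Compared per transcript length, as the authors' deposited FPKM values allow, Otud1 changed its place among the 8. With NaCl the order by mean FPKM was Otub1 (14.7), Otud6b (8.02), Otud5 (7.29), Otud4 (4.06), Otud7b (2.93), Otud3 (2.88), Otud1 (1.15) and Otub2 (0.875). Otud6b overlapped Otud5 and Otud7b overlapped Otud3 across libraries, and the other neighbours did not overlap. At 25 mg/kg Otud1, at 15.1 ± 1.1 FPKM, was next to Otub1, at 17 FPKM, and their ranges overlapped; the third was Otud7b at 8.6 FPKM, below every Otud1 value.

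At 50 mg/kg the order began with Otub1 (17.2 FPKM), Otud1 (9.8 ± 2.3 FPKM) and Otud5 (6.08 FPKM), with no overlap between the first pair or between Otud1 and Otud5. From Otud5 downwards each gene overlapped the next, through Otud6b (5.88), Otud7b (5.84), Otud4 (4.09), Otud3 (2.81) and Otub2 (1.19). Otud1 ranked 1 of 8 in replicate 2 at 25 mg/kg, 2 in the other 5 retrorsine libraries and 7 in each NaCl library.

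The share of Otud1 in the summed FPKM of the 8 genes was 2.34%, 3.28% and 2.59% with NaCl, 24.7%, 25.3% and 21.5% at 25 mg/kg and 20.1%, 18.5% and 16.4% at 50 mg/kg. The sum itself was 41.3, 41.3 and 43.1 FPKM with NaCl, 63.9, 61.4 and 64.3 FPKM at 25 mg/kg and 59.5, 55 and 44.3 FPKM at 50 mg/kg. Without Otud1 the other 7 genes summed to 48.1 ± 2.25 FPKM at 25 mg/kg and 40.8 ± 1.08 FPKM with NaCl (SD, n = 3 each), and to 43.1 ± 5.49 FPKM at 50 mg/kg. FPKM is a relative unit, and these sums cannot be read as amounts of RNA per cell.

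**Figure D2:**
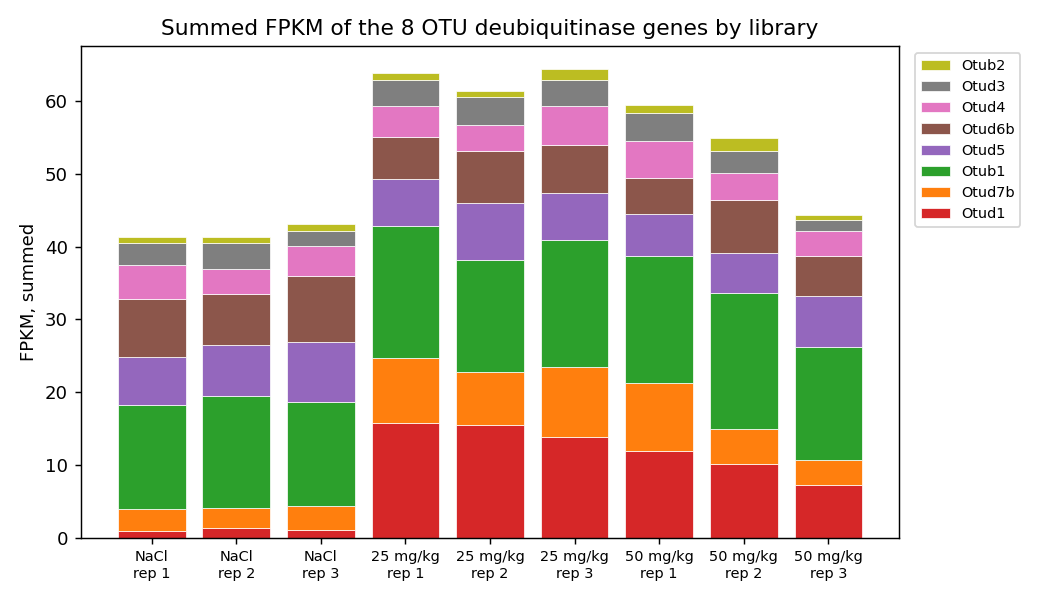
Stacked bars give the FPKM of each of the 8 genes in each of the 9 libraries, on a y axis that starts at 0. The Otud1 segment at the base is 16.4% to 25.3% of the bar in the retrorsine libraries and 2.34% to 3.28% of it with NaCl, while Otub1 is a large segment in every bar.

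Srxn1, Mknk2, Slc20a1, Sbds, Pef1 and Cry2 were the 6 tested genes whose log2 CPM was most like that of Otud1 over the 9 libraries, with Pearson correlations of 0.993, 0.991, 0.988, 0.986, 0.984 and 0.983. Srxn1 encodes sulfiredoxin, which repairs oxidised peroxiredoxins, and averaged 47.8 CPM with NaCl, 816 CPM at 25 mg/kg and 488 CPM at 50 mg/kg. Mknk2 encodes a kinase of the cap-binding factor eIF4E and averaged 158, 687 and 560 CPM in the same order. Slc20a1, a sodium-phosphate carrier, averaged 23.2, 200 and 131 CPM.

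The other 3 of these genes moved over a smaller range. Sbds, needed for maturation of the large ribosomal subunit, averaged 27.2 CPM with NaCl, 65 CPM at 25 mg/kg and 55.2 CPM at 50 mg/kg. Cry2, a repressor of the circadian clock, averaged 47.3, 118 and 101 CPM, and the calcium-binding Pef1 averaged 36.9, 57.5 and 53.4 CPM in that order. All 6 shared with Otud1 the order NaCl, 50 mg/kg, 25 mg/kg from low to high. Ranked by Spearman correlation instead, the 6 were Akt1s1 and Mknk2, both at 1, and Anxa5, Tbx6, Acsm5 and Slc10a3, all at 0.983, so Mknk2 alone was in both sets. These genes were picked out of 12557 for their likeness.

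Of 9 further genes listed with an OTU domain, 7 passed the filter. These genes and the gene lists below were also chosen with earlier results of these data known. Their calls and adjusted p-values therefore describe these libraries and are no independent test. Otud6a, a single-exon relative, had 1, 1 and 0 reads at 25 mg/kg and 0 in every other library, and Otud7a, the close paralogue of Otud7b, had 0 reads in all 9, which in these libraries allows up to 0.16 to 0.197 CPM from counting error alone. Otulin, which cuts linear chains, had the highest mean FPKM of the OTU genes, 23.2 to 23.3 in the 3 groups. Otulin, Vcpip1, Zranb1 and Alg13 each overlap another annotated gene on the opposite strand, and with the strand setting not stated their levels may include reads of that gene. Its log2 fold changes were -0.02 at 25 mg/kg and 0.06 at 50 mg/kg (SE 0.18 each; adjusted p = 0.96 and 0.85 in edgeR).

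Yod1 encodes an OTU enzyme that works with the ATPase p97 in the removal of misfolded proteins from the endoplasmic reticulum. It was 13.3, 5.41 and 10.8 CPM with NaCl, 15.5, 17.9 and 35 CPM at 25 mg/kg and 26.3, 56.3 and 17.7 CPM at 50 mg/kg, and its retrorsine libraries were all above NaCl. It was the 1 of 7 called, at 50 mg/kg (log2 fold change 1.77, SE 0.49, adjusted p = 0.04 in edgeR); at 25 mg/kg the value was 1.22 (SE 0.49, adjusted p = 0.13), and between the doses 0.55 (adjusted p = 0.8). The call at 50 mg/kg was lost in 10 of 20 alternative settings, with adjusted p between 0.002 and 0.13 over all of them, DESeq2 and limma-voom included.

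Leaving out single libraries lost that Yod1 call without replicate 1 (log2 1.91) or 2 (1.16) at 50 mg/kg, without replicate 1 (1.76) or 2 (1.76) at 25 mg/kg and without NaCl replicate 1 (2.04), 2 (1.47) or 3 (1.84). Yod1 overlaps another gene on the opposite strand, and without a stated strand setting their reads cannot be told apart. Of the 7 genes, 0 were called at 25 mg/kg by edgeR, DESeq2 or limma-voom, with 1, Yod1, at an unadjusted p under 0.05 in each. In edgeR 28.6% of all tested genes passed that unadjusted limit, and nothing is read from the count.

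Vcpip1, another partner of p97, was 27, 18.7 and 26.3 CPM with NaCl, 29.8, 31 and 32.5 CPM at 25 mg/kg and 40.1, 31.3 and 28.1 CPM at 50 mg/kg, without overlap with NaCl at either dose. Its log2 fold changes of 0.37 and 0.47 (SE 0.19 each) did not pass (adjusted p = 0.23 and 0.13 in edgeR). Tnfaip3 encodes A20, the NF-kappaB-induced brake on NF-kappaB signalling. It was 249, 6.06 and 19.6 CPM with NaCl, 43.3, 5.98 and 10.3 CPM at 25 mg/kg and 44.1, 29.2 and 377 CPM at 50 mg/kg.

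The 2 high Tnfaip3 values were in replicate 3 at 50 mg/kg, the library with most neutrophil marker reads, and in NaCl replicate 1, the library with most acinar transcripts; the part of either was not tested. Its groups overlapped in all 3 comparisons, and its log2 fold changes of -2.2 (SE 1.4, adjusted p = 0.33 in edgeR) at 25 mg/kg and 0.72 (SE 1.34, adjusted p = 0.75) at 50 mg/kg changed sign when 1 of those libraries was left out, to 0.63 without NaCl replicate 1 and to -1.32 without replicate 3 at 50 mg/kg. Otulinl, an Otulin relative without catalytic activity, Zranb1, which encodes the deubiquitinase TRABID, and Alg13, an enzyme of glycosylation with an OTU-like domain, had log2 fold changes of 0.62, 0.16 and -0.49 at 25 mg/kg and -0.07, -0.17 and -0.16 at 50 mg/kg, none of them called.

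**Figure D3:**
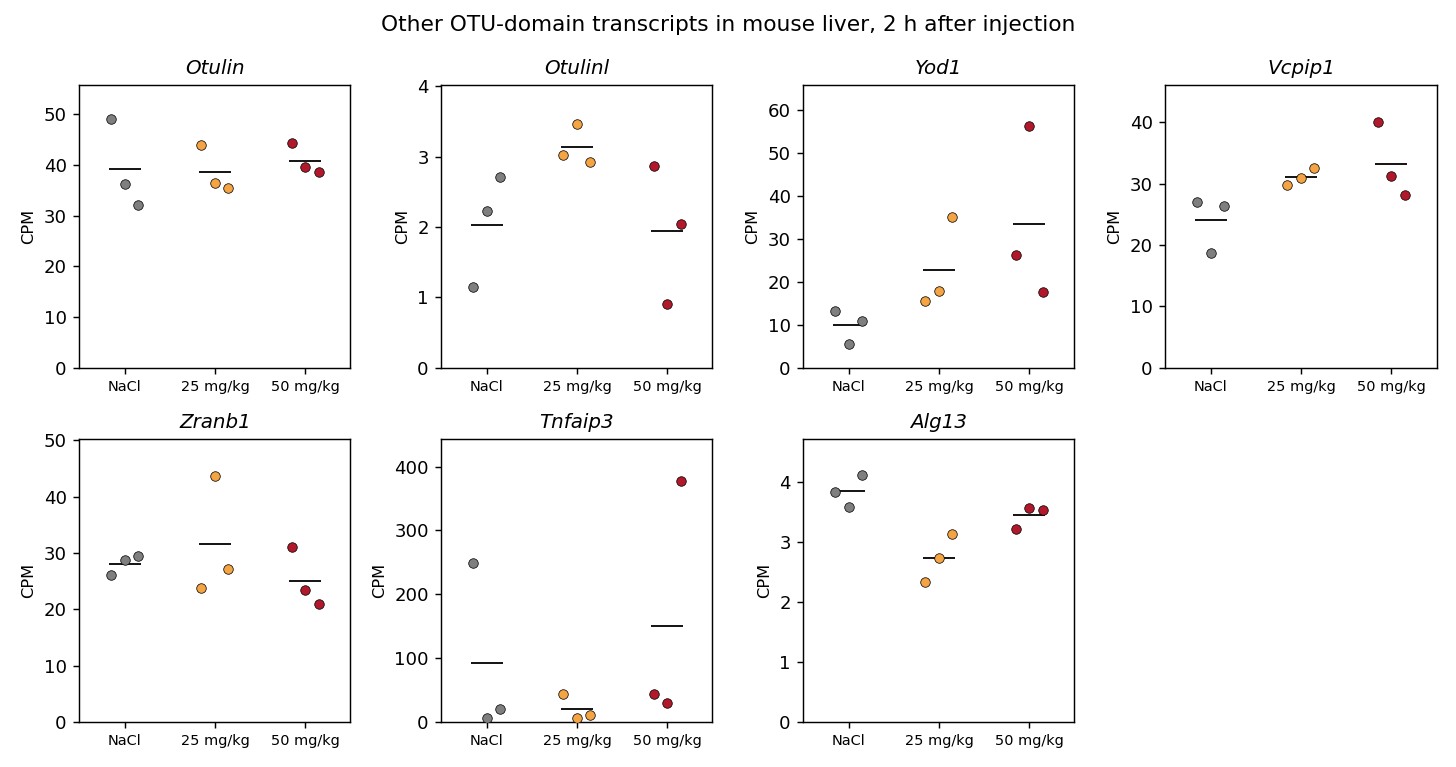
Each panel plots 1 of the 7 other measurable OTU genes, with CPM on a linear y axis from 0 and the NaCl, 25 mg/kg and 50 mg/kg groups on the x axis; points are libraries and the short line is the group mean (n = 3). Yod1 and Vcpip1 lie above NaCl in every retrorsine library, and Tnfaip3 is high in 1 library at 50 mg/kg (377 CPM) and 1 NaCl library (249 CPM).

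**Figure D4:**
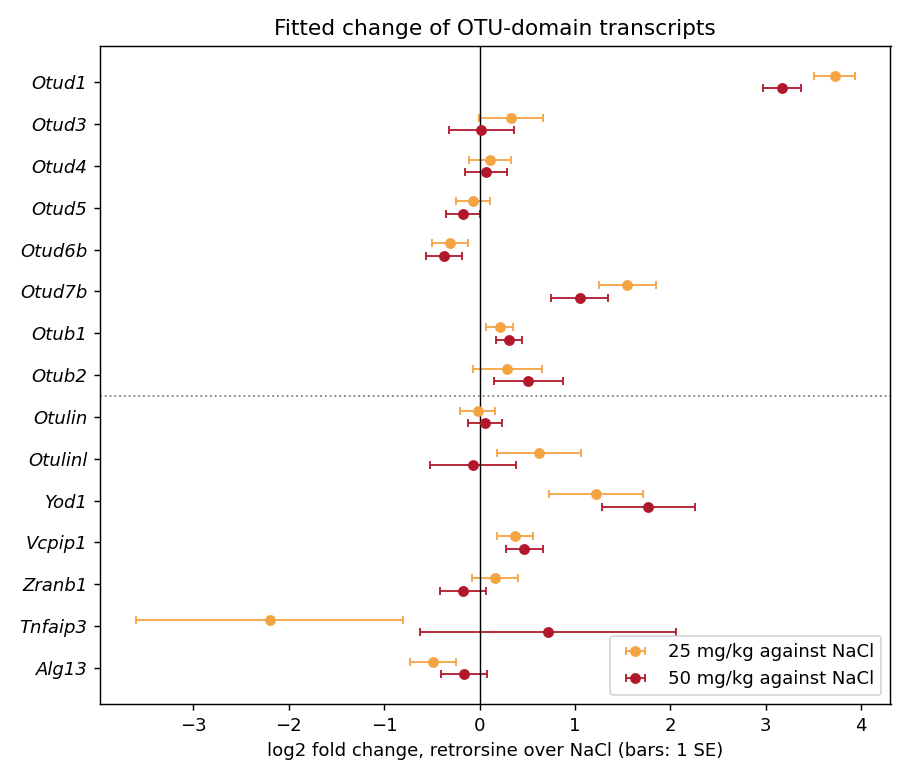
Points give fitted log2 fold changes of retrorsine over NaCl at 25 and 50 mg/kg, with bars of 1 SE, for the 8 genes (above the dotted line) and the 7 other OTU genes (below it). Otud1 stands at 3.72 and 3.17, Otud7b at 1.55 and 1.05 and Yod1 at 1.22 and 1.77, while 5 of the 8 genes lie between -0.37 and 0.33 at both doses.

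Outside the OTU family, 66 deubiquitinases of other families were tested. Among them 3 were called higher and 6 lower at 25 mg/kg, and 4 higher and 7 lower at 50 mg/kg, with median log2 fold changes of 0.01 and -0.07. Over all tested genes, 5.9% were called higher and 7.56% lower at 25 mg/kg, and 7.09% and 8.01% at 50 mg/kg. Nothing is read from the counts of the 66 genes, and the same shares apply to the lists below. Of 44 ubiquitin-specific proteases, 2 were higher and 5 lower at 25 mg/kg, and 3 were higher and 7 lower at 50 mg/kg. Usp2, a clock-regulated protease, fell to 6.32 ± 0.71 CPM at 25 mg/kg, against 29.8 ± 4.8 CPM with NaCl (SD, n = 3 each; log2 -2.24, SE 0.36, adjusted p = 0.0057 in edgeR). It was also called lower at 50 mg/kg (log2 -1.73, SE 0.36, adjusted p = 0.013 in edgeR).

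Usp46, which acts with WD-repeat cofactors, fell to 2 ± 0.4 CPM at 25 mg/kg and 2.4 ± 0.31 CPM at 50 mg/kg, against 6.86 ± 0.79 CPM with NaCl (SD, n = 3 each; log2 -1.78 and -1.51, SE 0.26 each, adjusted p = 0.0038 and 0.0071 in edgeR). Usp32 fell to 8.38 ± 0.54 CPM at 50 mg/kg, against 25.3 ± 6.6 CPM with NaCl (log2 -1.59, SE 0.26, adjusted p = 0.0054 in edgeR). At 25 mg/kg it was also called lower (log2 -1.24, adjusted p = 0.013 in edgeR), but not without replicate 1 at that dose. Usp25 fell to 15 ± 1.9 CPM at 25 mg/kg, against 28 ± 3.1 CPM with NaCl (log2 -0.9, SE 0.16, adjusted p = 0.0071 in edgeR). At 50 mg/kg Usp25 was called lower as well (log2 -0.78, adjusted p = 0.012 in edgeR). Usp11 rose to 4.59 ± 1.4 CPM at 50 mg/kg, against 1.16 ± 0.42 CPM with NaCl (log2 1.97, SE 0.38, adjusted p = 0.011 in edgeR), a call lost in 3 of 20 alternative settings: without NaCl replicate 3 (log2 1.9, adjusted p = 0.051), without NaCl replicate 1 and replicate 2 at 50 mg/kg (1.55, 0.078), and without NaCl replicate 1 and replicate 3 at 50 mg/kg (1.76, 0.053).

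The smaller families gave few calls. Of 5 MINDY and ZUP1 genes at 25 mg/kg, Mindy1 was called higher (log2 0.58, adjusted p = 0.025 in edgeR) and Mindy2 lower (log2 -0.95, adjusted p = 0.047), calls lost in 8 and 14 of 20 alternative settings. Of 11 JAMM-domain genes, Eif3f was called higher at 50 mg/kg (log2 0.48, adjusted p = 0.049 in edgeR), a call lost in 16 of 20. None of the 6 UCH and Josephin genes was called at either dose by edgeR, DESeq2 or limma-voom. At an unadjusted p under 0.05 in edgeR, 1 of them passed at 25 mg/kg and 0 at 50 mg/kg, where 28.6% and 31.2% of all tested genes passed. In the comparison of 50 with 25 mg/kg, 0 of these 66 genes were called by any of the 3 tools. At an unadjusted p under 0.05 1 of the 66 passed, where edgeR passed 8.59% of all genes.

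Among 9 genes for ubiquitin itself, its activating enzymes and the linear-chain ligase, 1 was called higher at 25 mg/kg and 3 at 50 mg/kg, and 0 were lower. Ubb, a polyubiquitin gene, rose to 1010 ± 290 CPM at 25 mg/kg and 1100 ± 81 CPM at 50 mg/kg, against 394 ± 56 CPM with NaCl (SD, n = 3 each; log2 1.36 and 1.48, SE 0.22 each, adjusted p = 0.006 and 0.0042 in edgeR). Ubiquitin repeats are near-identical to one another, so counts of this gene may be shared with other copies.

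Of 17 tested genes for proteins described as substrates or partners of OTU enzymes, 1 was higher and 2 were lower at each dose. Nfe2l2, which encodes the oxidative stress factor NRF2, rose to 84.4 ± 24 CPM at 25 mg/kg and 80.4 ± 6.6 CPM at 50 mg/kg, against 34.5 ± 4.3 CPM with NaCl (SD, n = 3 each; log2 1.29 and 1.22, SE 0.22 each, adjusted p = 0.0064 and 0.0078 in edgeR). Traf3 fell to 9.2 ± 0.94 CPM at 25 mg/kg, against 22.3 ± 7.6 CPM with NaCl (log2 -1.27, SE 0.29, adjusted p = 0.021 in edgeR).

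The call of Traf3 was lost in 4 of 20 alternative settings, and the 2 Nfe2l2 calls and the 2 Ubb calls held in all 20. For Traf3 the losses were the fits without replicate 1 (log2 -1.35), 2 (-1.21) or 3 (-1.26) at 25 mg/kg or without NaCl replicate 1 (-0.96).

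**Figure D5:**
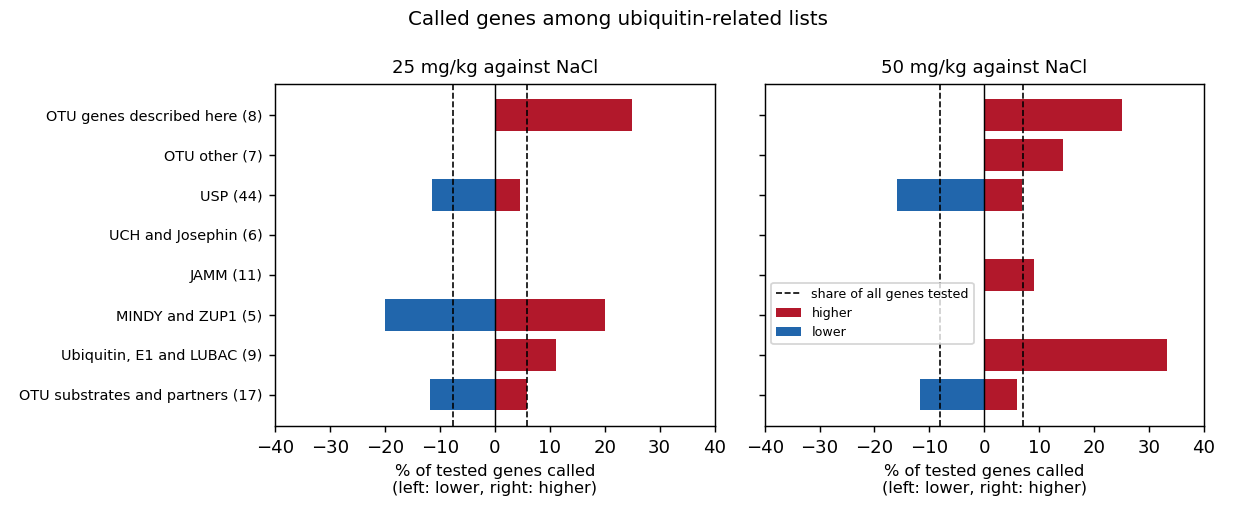
Horizontal bars give the share of the tested genes of each list that edgeR called higher (right of 0) or lower (left of 0) at an adjusted p under 0.05, at 25 mg/kg and at 50 mg/kg against NaCl, with the number tested in parentheses; dashed lines mark the shares among all tested genes, 5.9% higher and 7.56% lower at 25 mg/kg and 7.09% higher and 8.01% lower at 50 mg/kg. The bar of the 8 OTU genes stands for Otud1 and Otud7b, which were chosen with these values known, and several lists hold so few genes that 1 call fills a large share.

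Otud1 was 1 of 216 tested genes annotated with a single exon. Of these 216 genes, 38 were called higher and 2 lower at 25 mg/kg, and 48 were called higher and 5 lower at 50 mg/kg. Over all tested genes, 5.9% were called higher and 7.56% lower at 25 mg/kg, and 7.09% and 8.01% at 50 mg/kg. The median log2 fold change of the 216 genes was 0.5 at each dose, against 0.012 and 0.00051 over all tested genes. Otud1 ranked 8 from the top of the 216 at 25 mg/kg and 10 at 50 mg/kg. In the comparison of 50 with 25 mg/kg edgeR called 0 of the 216, and their median was 0.01.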

How the data were processed

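Poly(A)-selected liver RNA was sequenced in 9 libraries of 3 groups. The authors deposited a table of whole-number read counts and FPKM values per gene, per the file headers; HISAT2 and GRCm38 are named in the submitters' processing notes, and a counting tool, strand setting or annotation is not given in the sources used here. Of 21936 genes, 21617 had the same start and end as in GENCODE M21, and recomputing FPKM from the deposited counts and lengths matched 100.0% of nonzero values within 1%. No row was without a gene and 0 value columns were left out.

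Counts were analysed with edgeR 4.0.16 in R 4.3.3: filterByExpr kept 12557 genes, TMM scaled the libraries, and glmQLFit and glmQLFTest compared the 3 groups in a single fit with 6 residual degrees of freedom, two-sided, with Benjamini-Hochberg adjustment over all tested genes and a threshold of 0.05. Printed CPM use TMM-scaled totals without a pseudocount; correlations use log2 CPM with a prior count of 2. The fit was also run on simulated counts for independent libraries. The outcome is not given here, and no result rests on it. Replicates differed by more than sampling noise, so no library was counted as a repeat of another. Alternatives were library totals, DESeq2 size factors, upper-quartile scaling, other filters, DESeq2 1.42.0, limma-voom (limma 3.58.1), a replicate block, fits restricted to the pair of groups in question, and omission of libraries. Replicate numbers in the labels are not said to mark shared animals or batches, and no batch or date is given.

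The 8 genes and all gene lists were chosen with earlier results of these data known. Genes named were the 8, every other OTU gene, up to 3 called genes per list and comparison by lowest adjusted p (up to 2 by lowest p where none was called, given only as counts here), and the 6 genes most like Otud1; some genes this rule would name are not reported here. Promoter windows were matched by symbol to RefSeq sequences of GRCm38.p6 (6 of 8 genes). Intervals and floors cover counting error only: 3 reads per library were taken as the limit that a count of 0 allows.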

Additional observations from a re-analysis of the deposited data

How the results depend on the processing

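Over 20 alternative settings the log2 fold change of Otud1 stayed between 3.67 and 3.82 at 25 mg/kg, between 3.04 and 3.31 at 50 mg/kg and between -0.68 and -0.41 for 50 against 25 mg/kg. The 1690 genes called at 25 mg/kg became 1108 with the replicate block and 975 without NaCl replicate 1 and replicate 2 at 50 mg/kg, 2404 with DESeq2, and ranged over 626 to 1850 when single libraries were left out. The 1896 called at 50 mg/kg became 1229 with the block, 2630 with DESeq2, 653 without NaCl replicate 1 and replicate 2 at 50 mg/kg, and 1146 without NaCl replicate 1 and replicate 3 at 50 mg/kg, with a range of 700 to 1921 over single libraries. For 50 against 25 mg/kg the 1 called gene became 0 with library totals alone, with only the 2 groups compared and with the block, 71 with DESeq2, 0 and 4 without those pairs of libraries, and 0 to 3 over single libraries. With library totals in place of TMM, 35.5% of the calls at 50 mg/kg were higher, against 46.9%.

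Same-numbered libraries did not deviate together (correlations of -0.23 to 0.14), not every library correlated best with its own number, and the block left Otud1 at 3.72, 3.16 and -0.56. Reversed signs concerned genes that were not called. Among the 8 genes, the range over all settings crossed 0 for Otud4 at 25 mg/kg (-0.04 to 0.29), for Otud3 (-0.24 to 0.42) and Otud4 (-0.1 to 0.36) at 50 mg/kg, and between the doses for Otud4 (-0.2 to 0.08), Otud5 (-0.27 to 0.02), Otud6b (-0.22 to 0.07) and Otub2 (-0.2 to 0.49). At 25 mg/kg Otulin (-0.02) was 0.01 with limma-voom, 0.18 without either pair of libraries and -0.15 to 0.18 over single libraries, Tnfaip3 (-2.2) was 0.64 without either pair and -3.49 to 0.63, and Zranb1 (0.16) was -0.14 to 0.33. At 50 mg/kg Otulin (0.06) was 0 with library totals, 0.3 without NaCl replicate 1 and replicate 3 at 50 mg/kg, and -0.06 to 0.26, Otulinl (-0.07) was -0.45 to 0.27, and Tnfaip3 (0.72) was 4.04 without NaCl replicate 1 and replicate 2 at 50 mg/kg and -1.32 to 3.55 over single libraries. Between the doses Vcpip1 (0.09) was -0.06 to 0.2, and Yod1 (0.55) was -0.05 to 1, and -0.05 without NaCl replicate 1 and replicate 2 at 50 mg/kg. The causes were not tested. No detection limit was computed for 3 libraries per group.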
